A study of Mus musculus with 6 samples.

Results

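The genes of the vacuolar proton pump (V-ATPase), of the lysosome and of autophagy were read from a gene count table of mouse pancreas. The set took every row whose symbol starts with Atp6v0 or Atp6v1, 22 genes, and 36 named genes: the transcription factors Tfeb, Tfe3 and Mitf, 8 lysosomal genes and 25 autophagy genes. All 58 genes were found among the 36333 rows of the table. In the 3 cerulein libraries, RNA came from wild-type (WT) pancreas after 10 intraperitoneal injections of cerulein, each of 200 µl, at 200 µg/kg/h, with tissue taken when the injections were complete. In the 3 saline libraries, it came from WT pancreas after intraperitoneal saline. Strain, sex and age stand in no label used here, and no label says that the libraries came from separate animals, so p-values measure the spread between these libraries. Cerulein is a cholecystokinin analogue that overstimulates the acinar cell and is used to model acute pancreatitis.

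Lysosomes are acidified by the V-ATPase, whose cytosolic V1 sector splits ATP and turns a rotor that drives protons through the membrane-bound V0 sector. In autophagy, a membrane cup closes around cytoplasm, carries ATG8-family proteins bound to lipid, and fuses with a lysosome, where hydrolases that need the low pH digest the cargo. Acinar cells make and store large amounts of secretory protein and depend on both systems. In pancreatitis, vacuoles build up in these cells, and zymogens meet lysosomal cathepsins, which can activate trypsinogen.

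Total counts lay between 5335117 and 7610775 per library. Markers of acinar cells were abundant in every library, with summed levels of 139684 to 178686 CPM (the CPM unit scales each count to a common library size, here with TMM factors) after cerulein and 245989 to 461145 CPM after saline, and 6 of 7 were lower after cerulein. Of the duct markers, 5 of 6 were higher, with sums of 880 to 1109 CPM after cerulein and 137 to 171 CPM after saline. Of the macrophage and monocyte markers, 5 of 10 were higher, with sums of 552 to 651 CPM after cerulein and 189 to 404 CPM after saline, and no marker of the list was at 0 in all libraries. Saline replicate 1 stood apart from the other saline libraries. The chi-square per degree of freedom between their counts was 45.1 and 37.7 against replicates 2 and 3, but 7.98 between those 2, and its neutrophil marker sum was 221 CPM, against 19.6 and 42.9 CPM in saline replicates 2 and 3. In cerulein replicates 1, 2 and 3 that sum was 57.3, 96.9 and 129 CPM, so saline replicate 1 lay above every cerulein library. In bulk tissue, fewer cells of a type and less RNA per cell cannot be told apart.

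The set split in both directions after cerulein. Of the 58 genes, 54 had enough counts to be tested, and of these 14 rose (25.9%), 16 fell (29.6%) and 24 did not pass the test. A gene was called when its adjusted p was under 0.05 in edgeR's quasi-likelihood test, with Benjamini-Hochberg adjustment over all 12441 genes tested. Across all genes tested, 28.7% were higher and 27.1% were lower, so the shares in the set lie near the background. At least 2-fold changes were fewer, with 8 of the 54 genes higher and 2 of the 54 lower. Over the whole table these were 2273 (18.3%) and 2206 (17.7%) of the 12441 genes tested. The share of 2-fold falls in the set thus lay below that of all genes, and the cause was not tested. The 3 cerulein values did not overlap the 3 saline values for 35 of the 54 genes (64.8%), beside 63.0% of all genes tested. The median log2 fold change was -0.17 over the 54 genes and -0.00091 over all genes tested, and 25 of the 54 lay above 0.

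That split depended on how the libraries were scaled. Upper-quartile factors moved the median of all genes by -0.20 and left 9 members higher and 22 lower. The total count taken as library size, with no factor, moved it by 0.56 and left 24 members higher and only 2 lower. All changes given here are relative to the TMM scaling. Without saline replicate 1, 15 members were higher and 19 lower. By role, V-ATPase subunits gave 4 higher and 6 lower of 18 (22.2% and 33.3%), and the lysosomal genes 0 higher and 2 lower of 8 (0% and 25%). The autophagy genes gave 8 higher and 7 lower of 25 (32% and 28%), beside 28.7% and 27.1% of all genes tested. Under upper-quartile scaling the counts by role became 3 and 8, 0 and 5, and 5 and 8, and by plain library size 6 and 0, 2 and 0, and 14 and 2.

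**Figure D1:**
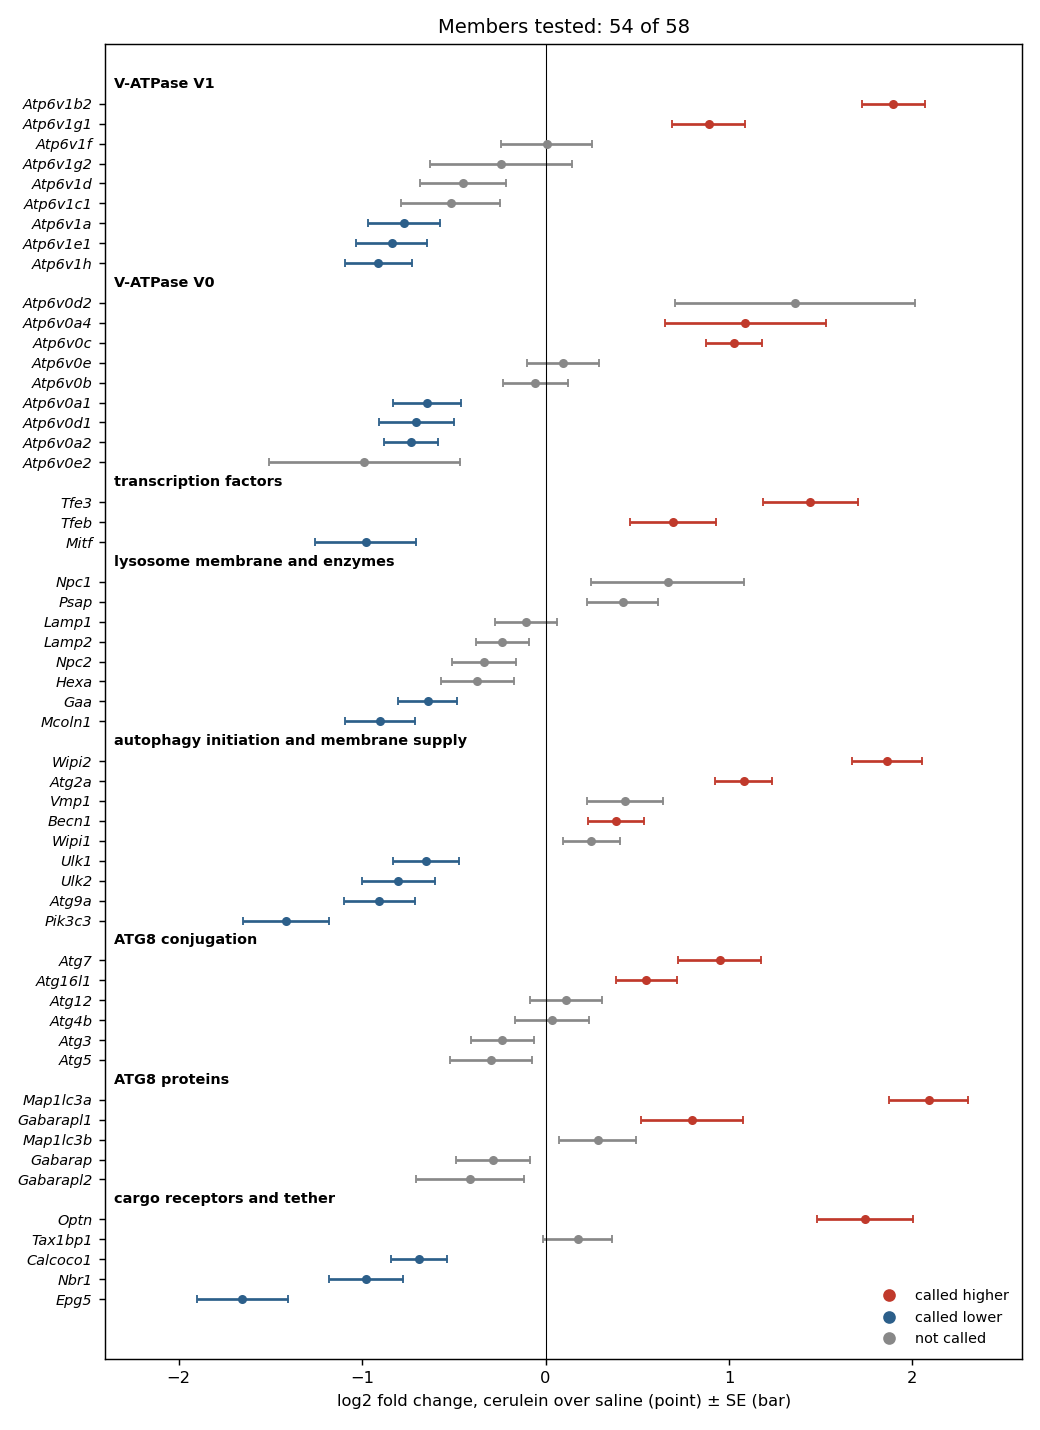
Log2 fold change, cerulein over saline, of the 54 genes tested, grouped by role, as point ± SE from the edgeR fit; red points were called higher, blue points lower and grey points were not called. Each sector of the V-ATPase and the early autophagy genes hold both red and blue points, and the range runs from 2.09 for Map1lc3a to -1.65 for Epg5.

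The main subunits of the catalytic V1 head moved in opposite directions. Subunits A and B alternate in the ATP-splitting ring of V1. Atp6v1b2, the widely expressed B subunit (chromosome 8, 69088736 to 69113718, plus strand, GRCm38), was at 133, 181 and 175 CPM in cerulein replicates 1, 2 and 3, against 43.3, 47.3 and 40.9 CPM in saline replicates 1, 2 and 3. Every cerulein library lay far above every saline library, and the gene rose 3.72-fold (log2 fold change 1.90 ± 0.17 SE, adjusted p = 1.1e-06, edgeR). Atp6v1a, its catalytic partner, was at 11.7, 13.0 and 12.2 CPM after cerulein, against 22.1, 16.2 and 24.9 CPM after saline. The groups again did not overlap, and Atp6v1a fell, with a log2 fold change of -0.77 ± 0.20 (adjusted p = 0.00451).

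The balance of the 2 genes within a library does not depend on library scaling. The ratio of Atp6v1b2 counts to Atp6v1a counts was 11.4, 14.0 and 14.3 in the cerulein libraries, against 1.96, 2.92 and 1.64 in the saline libraries. This ratio was chosen after its values were seen and is given as a description, with no test. Per kilobase of exon, Atp6v1b2 stood at 30.8 ± 4.93 CPM per kb after cerulein and 8.26 ± 0.611 after saline (SD, n = 3 each), while Atp6v1a stood at 2.04 ± 0.106 and 3.49 ± 0.736 CPM per kb.

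Among the stalk and regulatory subunits of V1, 1 rose and 2 fell. In V1 as a whole, 2 of 9 tested genes rose (22.2%) and 3 fell (33.3%), beside 28.7% and 27.1% of all genes tested. Atp6v1g1, a peripheral stalk subunit, was at 24.1, 35.5 and 26.9 CPM after cerulein, against 14.2, 18.5 and 14.1 CPM after saline, and rose by 0.89 ± 0.20 on the log2 scale. Of its 50-base stretches, 19.2% also occur in other transcripts, led by Gm13453 and Gm12344, so part of its count may be shared with those copies. Atp6v1h, the regulatory subunit that can block ATP splitting when V1 is detached, was at 10.7, 11.9 and 9.22 CPM after cerulein, against 19.5, 20.9 and 19.5 CPM after saline. Atp6v1e1, the other peripheral stalk subunit, was at 11.1, 14.98 and 13.5 CPM after cerulein, against 19.5, 25.7 and 26.2 CPM after saline. Neither gene's groups overlapped, and they fell by 0.91 ± 0.18 and 0.84 ± 0.19 on the log2 scale (adjusted p = 0.000912 and 0.00245, edgeR).

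The remaining V1 genes did not pass the test or could not be tested. Atp6v1f, Atp6v1d, Atp6v1c1 and Atp6v1g2 had log2 fold changes of 0.01 ± 0.25, -0.45 ± 0.23, -0.52 ± 0.27 and -0.24 ± 0.39. Atp6v1c1 passed without cerulein replicate 2, at -0.86, without saline replicate 1, at -0.72, with the replicate block, at -0.57, and with upper-quartile factors, at -0.72. Atp6v1d passed with upper-quartile factors, at -0.65, and Atp6v1f with library size alone, at 0.61. Atp6v1b1, the B subunit of acid-secreting kidney cells, and Atp6v1e2, a testis form of subunit E in mouse, were at 0 counts in all 6 libraries. Atp6v1g3 had 1 count in saline replicate 1 and none elsewhere. Atp6v1c2 had 2, 2 and 4 counts in the cerulein libraries, against 0, 2 and 0 counts in the saline libraries.

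**Figure D2:**
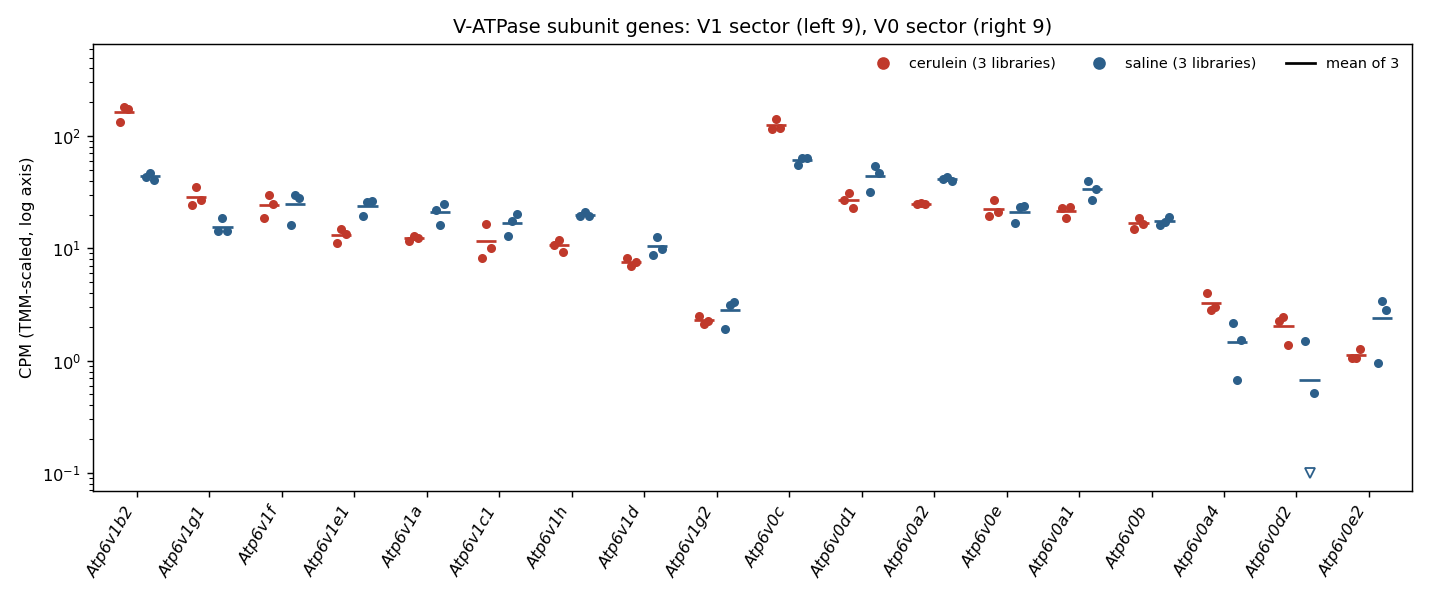
CPM (log axis, TMM-scaled) of the 18 V-ATPase subunit genes tested, with V1 genes on the left and V0 genes on the right; each point is a library, red for cerulein and blue for saline, each line is the mean of 3, and the open triangle marks a library at 0 counts (Atp6v0d2, saline replicate 2). Atp6v1b2 and Atp6v0c lie above their saline values with no overlap, and Atp6v1a and Atp6v0d1 lie below theirs.

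In the V0 sector 2 genes rose (22.2%), among them the proteolipid Atp6v0c, 3 fell (33.3%) and 4 did not pass. The shares of all genes tested were 28.7% higher and 27.1% lower. Atp6v0c, which forms most of the rotating proton-carrying ring (chromosome 17, 24163865 to 24169678, minus strand), was at 115, 141 and 117 CPM after cerulein, against 55.5, 64.2 and 63.5 CPM after saline. The groups stood far apart, and Atp6v0c rose 2.04-fold (log2 fold change 1.03 ± 0.15, adjusted p = 9.14e-05, edgeR). Of its 50-base stretches, 10.8% also occur in the pseudogenes Atp6v0c-ps1 and Atp6v0c-ps2. Atp6v0d1, which caps the ring from the cytosolic side, was at 27.2, 30.9 and 22.7 CPM after cerulein, against 31.8, 53.8 and 47.1 CPM after saline, and fell by 0.70 ± 0.20 on the log2 scale. Its groups were separated by a narrow gap, and without cerulein replicate 3 the fall was 0.59 and did not pass.

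The large subunit a, which forms the channels for protons and targets the pump to a given membrane, fell in the forms Atp6v0a1 and Atp6v0a2 and was higher in the kidney form. Atp6v0a2, a form of the Golgi and endosomes, was at 24.9, 25.5 and 24.8 CPM after cerulein, against 41.2, 43.5 and 40.1 CPM after saline, with no overlap. Atp6v0a1 was at 22.8, 18.6 and 23.2 CPM after cerulein, against 40.0, 27.0 and 33.7 CPM after saline. They fell by 0.73 ± 0.15 and 0.65 ± 0.18 on the log2 scale, and without cerulein replicate 2 the fall of Atp6v0a1 was 0.54 and did not pass. Atp6v0a4, the kidney form, had 34, 24 and 24 counts in the cerulein libraries, against 16, 3 and 6 in the saline libraries, and its log2 fold change of 1.09 ± 0.44 passed by the smallest margin (adjusted p = 0.04996). It lost its call under 8 alternatives, with log2 fold changes of 0.78 to 1.21, which include leaving out any cerulein library, saline replicate 2 or saline replicate 3. Tcirg1, the a3 form found in lysosomes and osteoclasts, is not part of the symbol rule and had a log2 fold change of 0.27 ± 0.22, which did not pass. With library size alone Tcirg1 was called higher, at 0.83.

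Atp6v0b and Atp6v0e, small subunits of the ring and its surroundings, had log2 fold changes of -0.05 ± 0.18 and 0.09 ± 0.20. Neither passed, but Atp6v0e did with library size alone, at 0.68. Atp6v0d2, the d form of osteoclasts and some macrophages, had 19, 21 and 11 counts after cerulein, against 11, 0 and 2 counts after saline, and did not pass at 1.36 ± 0.66. Atp6v0e2 did not pass either, at -0.99 ± 0.52. Without saline replicate 1, both passed, at 2.95 and -1.49, and Atp6v0d2 also passed by limma-voom, at 1.96, and with no count filter, at 1.44. Per kilobase of exon, Atp6v0c led the V0 genes after cerulein with 36.7 ± 4.19 CPM per kb, ahead of Atp6v0d1 with 15.03 ± 2.28. After saline, Atp6v0d1 with 24.7 ± 6.29 and Atp6v0c with 18.0 ± 1.42 CPM per kb lay within about 1 SD of each other. The ratio of Atp6v0c counts to Atp6v0d1 counts, chosen after its values were seen, was 4.23, 4.55 and 5.15 in the cerulein libraries, against 1.74, 1.19 and 1.35 in the saline libraries.

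The other genes of the pump act in its assembly or as accessory subunits. Of 11 listed genes of this kind, 1 rose (9.09%), 4 fell (36.4%) and 6 were not called, beside 28.7% higher and 27.1% lower of all genes tested. Upper-quartile scaling gave 1 rise and 7 falls, and plain library size 2 of each. Wdr7 and Dmxl2, which form the complex that helps V1 dock on V0, stood at 3.98 ± 0.966 and 20.8 ± 4.95 CPM after cerulein and 13.0 ± 1.46 and 42.3 ± 8.07 CPM after saline. They fell by 1.70 ± 0.26 and 1.03 ± 0.20 on the log2 scale (adjusted p = 9.67e-05 and 0.000763, edgeR). Vma21, a chaperone that assembles V0 in the endoplasmic reticulum, was at 8.40, 9.48 and 8.33 CPM after cerulein, against 22.9, 23.2 and 23.7 CPM after saline, and fell by 1.41 ± 0.18. Atp6ap1, an accessory subunit of V0, was the member that rose, by 0.60 ± 0.15, and Atp6ap2 did not pass at -0.37 ± 0.16, although it did with upper-quartile factors, at -0.56, and without saline replicate 1, at -0.46.

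The transcription factors of the lysosome did not move together. Tfeb, Tfe3 and Mitf bind as dimers to E-boxes upstream of lysosomal and autophagy genes, and their activity is set largely by phosphorylation and entry into the nucleus, which RNA levels do not show. Tfe3 was at 16.8, 10.9 and 19.1 CPM after cerulein, against 6.37, 4.96 and 5.66 CPM after saline, and rose by 1.44 ± 0.26 (adjusted p = 0.000386, edgeR). Tfeb was at 10.8, 12.1 and 9.47 CPM after cerulein, against 6.09, 6.31 and 7.71 CPM after saline, and rose by 0.70 ± 0.23 (adjusted p = 0.0212). Mitf was at 5.21, 3.28 and 4.67 CPM after cerulein, against 8.40, 10.1 and 7.46 CPM after saline, and fell by 0.98 ± 0.28 (adjusted p = 0.00857).

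None of the 3 had overlapping groups, but Tfeb lost its call under 4 alternatives. Its log2 fold change was 0.69 with DESeq2, 0.50 with upper-quartile factors, 0.62 without cerulein replicate 2 and 0.59 without saline replicate 1. The log2 ratio of Mitf to Tfeb counts was -1.04, -1.86 and -1.01 in the cerulein libraries, against 0.46, 0.67 and -0.05 in the saline libraries. The groups did not overlap, with a difference of -1.66 (two-sided exact permutation test, p = 0.1, which 3 against 3 cannot go below). Of the exonic bases of Tfe3, 42.1% lie in the span of Gm39487, which is listed at 0 in all libraries, so its counts may lack reads of the shared stretch.

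The E-box of these factors was looked for in the 250 bases before each RefSeq start site (GRCm38.p6). The windows held TCACGTG on either strand for 7 of the 45 members with a window (15.6%), beside 5.58% of 9519 tested genes with a window. Among members with a window, it was found for 1 of 9 that rose, 3 of 12 that fell and 3 of 20 that were not called. Map1lc3a, Atp6v1b2, Atp6v1g1, Atg16l1 and Becn1 rose but have no window, so they are not among the 9. Likewise, Atp6v0a2, Atp6v1h, Pik3c3 and Epg5 fell but have no window, so they are not among the 12. The 45 members include Atp6v1g3, Atp6v1b1, Atp6v1c2 and Atp6v1e2, which were not tested and do not hold the motif. TGANTCA, the AP-1 motif, was found for 2 of 45 members (4.44%), beside 5.76% of those genes. The stretches that hold the E-box, in capitals, are shown for 6 of the 7 genes, since they occur before genes of every class of change.
Lamp1 (chr8:13159087-13159160, plus strand, not called): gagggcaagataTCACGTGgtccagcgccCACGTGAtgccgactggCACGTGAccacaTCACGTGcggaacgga
Atp6v0b (chr4:117887330-117887378, minus strand, not called): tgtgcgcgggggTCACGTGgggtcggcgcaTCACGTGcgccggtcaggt
Atg3 (chr16:45158722-45158776, plus strand, not called): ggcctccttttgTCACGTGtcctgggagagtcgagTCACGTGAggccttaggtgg
Atp6v1a (chr16:44139372-44139403, minus strand, lower): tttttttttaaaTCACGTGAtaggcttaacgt
Gaa (chr11:119267810-119267840, plus strand, lower): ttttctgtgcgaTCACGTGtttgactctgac
Atg7 (chr6:114670951-114670981, plus strand, higher): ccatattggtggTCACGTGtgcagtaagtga
Lamp1 carries 4 copies within 74 bases of its start. It was not called under TMM scaling, but was called higher with library size alone. Atp6v1a and Gaa carry 1 copy each and fell, and Atg7 carries 1 copy and rose. Mcoln1, the gene whose stretch is not shown, carries 2 copies and fell. The Atg7 start site used here lies inside the span of the gene, and its last 50 window bases were not found in a GENCODE transcript of Atg7. Over all members, the last 50 bases were found in a transcript of the gene for 43 of 58 windows. The presence of a motif in these windows is a description and does not show binding.

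Of the 8 lysosomal members, 0 rose, 2 fell (25%) and 6 did not pass, beside 28.7% higher and 27.1% lower of all genes tested. Psap was called higher under 4 alternatives, and Lamp1 with library size alone. Lamp1 and Lamp2, which coat the inner face of the lysosomal membrane with sugar, were at 212, 228 and 205 CPM and 107, 101 and 112 CPM after cerulein, against 214, 211 and 271 CPM and 125, 132 and 121 CPM after saline. They did not pass, with log2 fold changes of -0.11 ± 0.17 and -0.24 ± 0.15. With library size alone the value of Lamp1 turned to 0.47 and passed. Mcoln1, the calcium channel of the lysosomal membrane whose current also activates Tfeb, was at 10.5, 11.6 and 8.59 CPM after cerulein, against 20.3, 18.2 and 18.8 CPM after saline. Gaa, the enzyme that breaks down glycogen in lysosomes, was at 21.1, 24.0 and 20.6 CPM after cerulein, against 35.5, 30.6 and 36.3 CPM after saline. In both genes every cerulein value lay under every saline value, and they fell by 0.90 ± 0.19 and 0.64 ± 0.16 on the log2 scale (adjusted p = 0.00125 and 0.0042, edgeR).

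The other lysosomal members did not pass. Hexa, a ganglioside-degrading enzyme, had a log2 fold change of -0.37 ± 0.20. Npc1 and Npc2, which pass cholesterol out of the lysosome, had 0.67 ± 0.42 and -0.34 ± 0.18. Psap, the precursor of the saposins, was at 240, 214 and 179 CPM after cerulein, against 189, 122 and 162 CPM after saline, with 0.42 ± 0.19. Psap passed without saline replicate 1, at 0.55, with the replicate block, at 0.44, with no count filter, at 0.49, and with library size alone, at 0.96. Npc2 passed without saline replicate 2, at -0.47, and with upper-quartile factors, at -0.53. Upper-quartile factors also gave calls for Hexa, at -0.56, and Lamp2, at -0.43.

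Among 40 further lysosomal genes, 7 rose (17.5%), 14 fell (35.0%) and 19 were not called, beside 28.7% higher and 27.1% lower of all genes tested. Scaling by upper-quartile factors gave 7 rises and 19 falls, library size alone turned this to 11 rises and 5 falls, and without cerulein replicate 2 there were 7 rises and 9 falls. The 3 largest changes were cathepsins that rose. Ctsl, which degrades trypsinogen, stood at 1219 ± 54.4 CPM after cerulein and 339 ± 63.4 CPM after saline. Ctsz stood at 134 ± 11.3 CPM after cerulein and 39.9 ± 0.214 CPM after saline, and Ctsb, which activates trypsinogen, at 606 ± 40.6 CPM and 189 ± 55.1 CPM. Their log2 fold changes were 1.85 ± 0.20, 1.75 ± 0.15 and 1.68 ± 0.22 (adjusted p = 6.14e-06, 6.72e-07 and 3.55e-05, edgeR). Ctsd, the aspartic cathepsin, did not pass at 0.36 ± 0.18, although it did with library size alone, at 0.96. Macrophages also express these cathepsins, and 5 of 10 macrophage and monocyte markers were higher, with Cd68 at 18.9 ± 3.32 CPM after cerulein and 8.54 ± 3.67 CPM after saline, while Adgre1 was at 3.72 ± 1.04 and 6.58 ± 3.09 CPM and did not pass. The part of these cells in the result was not tested.

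Autophagy starts with the ULK kinase complex and a lipid kinase that marks the site with phosphatidylinositol 3-phosphate, and both steps held genes that fell. Ulk1, the kinase, was at 30.1, 28.2 and 34.5 CPM after cerulein, against 42.0, 61.0 and 42.9 CPM after saline, and Ulk2, its relative, was at 11.2, 9.83 and 11.9 CPM, against 16.5, 23.2 and 18.0 CPM. The falls were 0.65 ± 0.18 and 0.80 ± 0.20 on the log2 scale. Pik3c3, the lipid kinase, was at 10.3, 5.97 and 6.57 CPM after cerulein, against 18.7, 23.4 and 19.0 CPM after saline. This was the second largest fall of the set, by 1.41 ± 0.23, which is 2.67-fold (adjusted p = 0.000199, edgeR). Becn1, its partner, was at 40.8, 49.0 and 50.4 CPM after cerulein, against 38.6, 33.1 and 35.5 CPM after saline. The call for Becn1 at 0.38 ± 0.15 (adjusted p = 0.0485) was lost under 9 alternatives, with log2 fold changes of 0.18 to 0.38, which include leaving out cerulein replicate 2 or 3 or saline replicate 2 or 3. Of its exonic bases, 38.9% lie in the span of Cntd1.

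The genes that read the lipid mark and feed the growing membrane also divided. Wipi2, which binds the mark and recruits Atg16l1 (chromosome 5, 142629533 to 142669672, plus strand), was at 266, 286 and 272 CPM after cerulein, against 57.2, 91.7 and 78.9 CPM after saline. It rose 3.63-fold (log2 fold change 1.86 ± 0.19, adjusted p = 3.83e-06, edgeR), and no saline library came near a cerulein one. Its relative Wipi1 was at 41.5, 40.8 and 46.5 CPM after cerulein, against 33.2, 41.7 and 33.7 CPM after saline, and did not pass at 0.25 ± 0.16. With library size alone, Wipi1 was called higher, at 0.83. Atg2a, which moves lipid from the endoplasmic reticulum into the new membrane, was at 93.0, 91.7 and 108 CPM after cerulein, against 41.8, 53.6 and 43.2 CPM after saline. Its groups lay well apart, and it rose 2.11-fold (adjusted p = 6.85e-05). Atg9a, the scramblase carried on seed vesicles, was at 34.4, 37.2 and 37.5 CPM after cerulein, against 55.8, 92.4 and 56.8 CPM after saline, and fell by 0.91 ± 0.19.

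Of the 50-base stretches of Atg9a, 30.2% also occur in other transcripts, led by Gm29253. Vmp1, a membrane protein of the endoplasmic reticulum known from pancreatitis in rats, had the highest level per length of all members, with 260 ± 42.1 CPM per kb after cerulein and 192 ± 33.3 CPM per kb after saline. It was at 887, 1188 and 932 CPM after cerulein, against 598, 785 and 845 CPM after saline. Although the groups did not overlap, Vmp1 did not pass, with a log2 fold change of 0.43 ± 0.21 (adjusted p = 0.0926, edgeR), but it did with no count filter, at 0.51, and with library size alone, at 1.03. The microRNA gene Mir21a, which lies in its span, is listed at 0.

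Of the 6 enzymes and partners that join ATG8 proteins to lipid, 2 rose (33.3%) and 4 did not pass, beside 28.7% higher of all genes tested. Atg7, which activates both ubiquitin-like proteins of autophagy, was at 16.7, 21.9 and 15.7 CPM after cerulein, against 7.18, 10.4 and 11.1 CPM after saline, and rose by 0.95 ± 0.23. Atg16l1, the scaffold that sets where conjugation takes place, was at 27.6, 32.5 and 35.2 CPM after cerulein, against 20.7, 21.6 and 22.9 CPM after saline, and rose by 0.55 ± 0.17. The adjusted p was 0.00296 for Atg7 and 0.0123 for Atg16l1 (edgeR), and Atg16l1 did not pass without cerulein replicate 3, at 0.48, or with upper-quartile factors, at 0.35. Atg3, Atg4b, Atg5 and Atg12 had log2 fold changes of -0.24 ± 0.17, 0.04 ± 0.20, -0.30 ± 0.23 and 0.11 ± 0.20. With upper-quartile factors Atg3 was called lower, at -0.43, and by plain library size Atg4b and Atg12 were called higher, at 0.60 and 0.71.

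The largest rise of the set was in the ATG8 family, the small proteins that coat the autophagosome. Map1lc3a (chromosome 2, 155276364 to 155278073, plus strand) was at 111, 179 and 120 CPM after cerulein, against 25.6, 38.1 and 33.4 CPM after saline. It rose 4.25-fold, with a log2 fold change of 2.09 ± 0.22 (adjusted p = 4.83e-06, edgeR). Map1lc3b, whose protein is the usual marker of autophagosomes, was at 226, 269 and 232 CPM after cerulein, against 143, 258 and 196 CPM after saline. Its groups overlapped and Map1lc3b did not pass at 0.28 ± 0.21, although it did without saline replicate 2, at 0.52, and with library size alone, at 0.90. Gabarapl1 was at 154, 190 and 167 CPM after cerulein, against 60.8, 147 and 86.4 CPM after saline. Its rise of 0.80 ± 0.28 lost its call under 4 alternatives, with log2 fold changes of 0.60 to 0.82, which include leaving out cerulein replicate 2 or 3 or saline replicate 3. Gabarap and Gabarapl2 did not pass, with -0.29 ± 0.20 and -0.41 ± 0.30, and Gabarap passed without saline replicate 1, at -0.49. Of the 50-base stretches of Gabarapl2, 12.2% occur in other transcripts.

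Levels per kilobase put the family in another order in each group. The length joins the exons of all annotated transcripts of a gene, so the order also depends on the annotation. It was 7517 bases for Map1lc3b and 1181 for Map1lc3a. By CPM without length, Map1lc3b had the highest mean of the family after cerulein, 242. After cerulein, Map1lc3a stood at 116 ± 31.3 CPM per kb, Gabarap at 85.1 ± 14.3, Gabarapl1 at 84.5 ± 9.0, Map1lc3b at 32.2 ± 3.10 and Gabarapl2 at 2.59 ± 0.982. After saline, Gabarap led with 104 ± 22.9 CPM per kb, followed by Gabarapl1 with 48.8 ± 22.1, Map1lc3a with 27.4 ± 5.34, Map1lc3b with 26.5 ± 7.64 and Gabarapl2 with 3.48 ± 0.392. The first 3 after cerulein lay within 1 SD or so of their neighbours. After saline, so did Map1lc3a and Map1lc3b, and Map1lc3a also lay within 1 SD of Gabarapl1, by the SD of Gabarapl1.

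**Figure D3:**
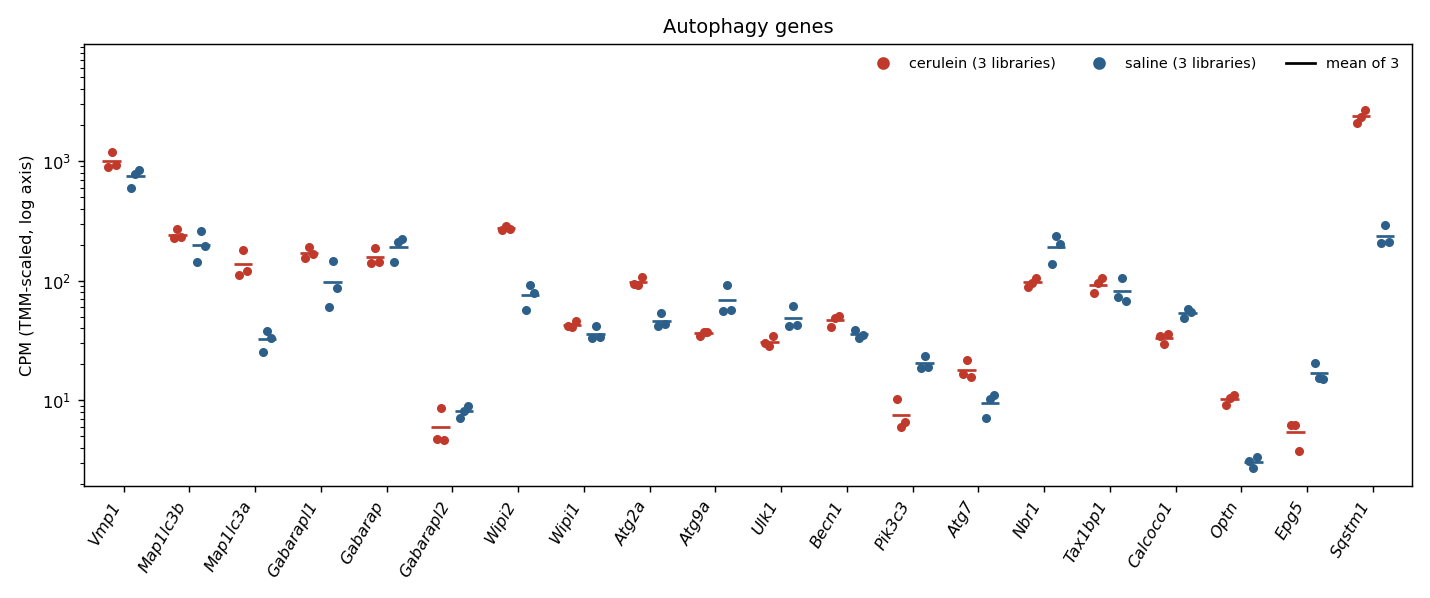
CPM (log axis, TMM-scaled) of 19 autophagy members and of Sqstm1 at the right, with each library as a point, red for cerulein and blue for saline, and each line the mean of 3. Map1lc3a, Wipi2, Atg2a and Optn lie higher after cerulein with no overlap, Pik3c3, Nbr1 and Epg5 lie lower, and Map1lc3b and Wipi1 overlap.

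Related genes were also compared as ratios within a library, which no scaling can move. Of 15 listed pairs, 12 could be used, and the groups did not overlap in 8. The share for other pairs of genes was not computed, and for single genes it was 63.0% of all tested. For Map1lc3a over Map1lc3b the log2 ratio of counts was -1.02, -0.59 and -0.95 in the cerulein libraries, against -2.48, -2.76 and -2.55 in the saline libraries, a difference of 1.74. For Wipi1 over Wipi2 it was -2.68, -2.81 and -2.55 after cerulein, against -0.78, -1.14 and -1.23 after saline, a difference of -1.63. For Gabarapl1 over Gabarap it was 0.13, 0.02 and 0.22 after cerulein, against -1.24, -0.51 and -1.36 after saline, a difference of 1.16. Each of the 8 had the smallest p that 3 against 3 can give (two-sided exact permutation test, p = 0.1, adjusted p = 0.15 over 12 pairs), so no pair passed.

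Besides these and Mitf over Tfeb, the pairs whose groups did not overlap were Atp6v0d2 over Atp6v0d1, Atp6v1g2 over Atp6v1g1, Gabarapl1 over Gabarapl2 and Ulk2 over Ulk1, with differences of 2.77, -1.13, 1.37 and -0.16. The value for Atp6v0d2 rests on 0 counts in saline replicate 2 and was 1.56 without that library. Pairs whose groups overlapped were Atp6v0a2 over Atp6v0a1, Lamp2 over Lamp1, Npc2 over Npc1 and Tfe3 over Tfeb, with differences of -0.10, -0.14, -0.9997 and 0.74.

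**Figure D4:**
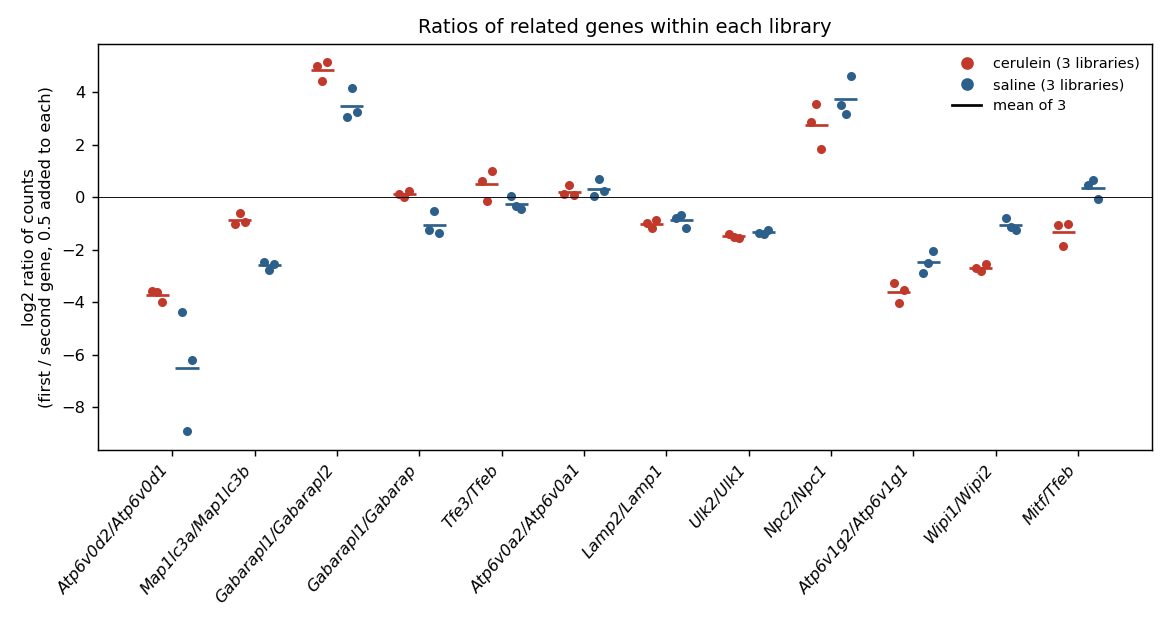
Log2 ratio of counts of 12 pairs of related genes within each library (0.5 added to each count), red for cerulein and blue for saline, with the mean of 3 as a line. The ratios of Map1lc3a to Map1lc3b, Wipi1 to Wipi2 and Mitf to Tfeb differ between groups by 1.74, -1.63 and -1.66 with no overlap, whereas Lamp2 to Lamp1 overlaps.

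Cargo receptors link ATG8 proteins to what is to be digested, and here they moved apart. Optn, a receptor for ubiquitin-tagged mitochondria and bacteria, was at 9.23, 10.4 and 11.1 CPM after cerulein, against 3.11, 2.70 and 3.34 CPM after saline, and rose 3.34-fold (log2 fold change 1.74 ± 0.26, adjusted p = 9.4e-05, edgeR). Nbr1, a receptor for ubiquitin-tagged protein and peroxisomes, was at 89.1, 96.3 and 106 CPM after cerulein, against 137, 238 and 201 CPM after saline, and fell by 0.98 ± 0.20. Calcoco1, a receptor for the endoplasmic reticulum and Golgi, was at 34.3, 29.7 and 36.1 CPM after cerulein, against 48.6, 58.1 and 55.0 CPM after saline, and fell by 0.69 ± 0.15. In each of the 3 the groups did not overlap. Tax1bp1 did not pass at 0.18 ± 0.19, although it did with library size alone, at 0.76. Epg5, which tethers the autophagosome to the lysosome before they fuse, was at 6.27, 6.20 and 3.79 CPM after cerulein, against 20.5, 15.3 and 15.2 CPM after saline. It had the largest fall of the set, by 1.65 ± 0.25, which is 3.14-fold (adjusted p = 9.35e-05).

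Sqstm1, the p62 receptor for ubiquitin-tagged protein, belongs to a list of further autophagy genes. It was at 2059, 2324 and 2689 CPM after cerulein, against 205, 290 and 209 CPM after saline, and rose 10.1-fold (log2 fold change 3.33 ± 0.23, adjusted p = 1.38e-07, edgeR). Counts of Sqstm1 were 23.1, 24.1 and 25.4 times those of Nbr1 in the cerulein libraries, against 1.498, 1.22 and 1.04 times in the saline libraries, a ratio chosen after its values were seen. Of 37 further autophagy genes, 14 rose (37.8%), 13 fell (35.1%) and 10 were not called, beside 28.7% higher and 27.1% lower of all genes tested. This became 11 rises and 17 falls under upper-quartile scaling and 18 rises and 5 falls by plain library size. Bnip3, a receptor for mitochondria, stood at 9.01 ± 0.719 CPM after cerulein and 77.9 ± 34.5 CPM after saline and fell by 3.11 ± 0.29. Atg101, a subunit of the ULK complex, stood at 33.4 ± 1.54 and 8.20 ± 2.23 CPM and rose by 2.02 ± 0.20.

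The nutrient-sensing kinase mTORC1 holds both ULK1 and TFEB inactive. Of 28 listed regulators, 27 were tested, of which 9 rose (33.3%), 10 fell (37.0%) and 8 were not called, beside 28.7% higher and 27.1% lower of all genes tested. Upper-quartile scaling gave 8 rises and 12 falls, and plain library size 12 rises and 4 falls. Sesn1 and Sesn2, stress proteins that restrain mTORC1, moved in opposite directions. Sesn1 was at 12.2, 12.4 and 10.5 CPM after cerulein, against 110, 159 and 67.4 CPM after saline, and fell by 3.26 ± 0.29. Sesn2 was at 76.7, 65.6 and 77.7 CPM after cerulein, against 24.4, 5.63 and 7.97 CPM after saline, and rose by 2.44 ± 0.49 (adjusted p = 0.00527, edgeR). Saline replicate 1 was the highest of its saline libraries, and without it the rise was 3.41. Flcn, part of the complex through which mTORC1 acts on TFEB, was at 10.8, 8.19 and 7.45 CPM after cerulein, against 38.3, 35.4 and 37.0 CPM after saline, and fell by 2.07 ± 0.19. Over the 4 lists of further genes, 31 of 115 tested rose and 41 fell, beside the same 28.7% and 27.1% of all genes tested. These counts became 27 and 55 under upper-quartile scaling and 43 and 16 by plain library size.

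As a share of all counts, the members made up 0.457%, 0.469% and 0.460% in the cerulein libraries, against 0.277%, 0.246% and 0.239% in the saline libraries. The groups did not overlap, with means of 0.462% ± 0.00607 and 0.254% ± 0.0202 (SD, n = 3 each). The acinar transcripts whose sums are given above are part of that total. By library size alone, the scaling of such shares, the median log2 fold change was 0.56 over all genes tested and 0.41 over the members. Vmp1, which was not called, had 7491, 10154 and 7384 counts in the cerulein libraries, against 4419, 3487 and 3286 in the saline libraries. Of the changes in single genes, 11 of the 30 called members kept their call under every alternative. These were Atp6v1b2, Atp6v0c, Atp6v1g1, Tfe3, Atg2a, Wipi2, Atg7, Map1lc3a and Optn, which rose, and Pik3c3 and Epg5, which fell. With library size alone left aside, 23 of the 30 kept it.

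**Figure D5:**
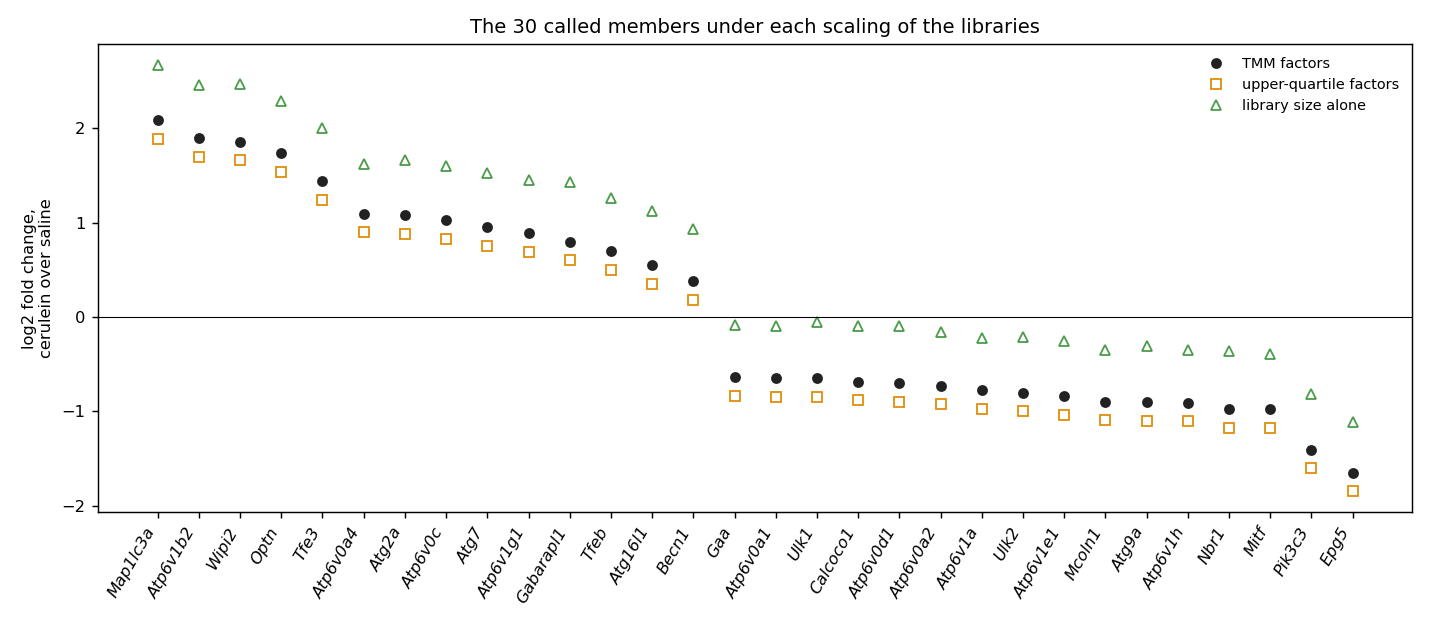
Log2 fold change, cerulein over saline, of the 30 called members under TMM factors (filled circles), upper-quartile factors (squares) and library size alone (triangles), in the order of the TMM value. Each scaling moves all genes by about the same amount, and with library size alone 14 of the 16 members that fell lie between -0.40 and -0.05, with Pik3c3 and Epg5 lower.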

How the data were processed

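Per the labels' protocols, RNA was taken with TRIzol from tissue in RNAlater and made into libraries by the TruSeq Stranded mRNA kit. The table deposited by the authors holds raw counts. Tools named in the submitters' processing notes are HTSeq, STAR and Trimmomatic, with the build mm10. Versions, the annotation and the use of strand in counting are not stated there, so reads of overlapping genes may not be separable: 654 of 676 protein-coding genes (96.7%) wholly inside another gene of the table were at 0, but no member lies so.

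The deposited counts were used unchanged. The test was edgeR's (version 4.0.16, R 4.3.3, filterByExpr at a minimum count of 10 and total of 15, TMM factors, robust quasi-likelihood F test, two-sided, Benjamini-Hochberg over 12441 genes). The procedure was tested on simulated counts in which few genes changed, rises and falls being equally likely. That simulation does not cover a table where most genes change, so it cannot decide between the scalings. SEs come from the F statistics. CPM is relative to the TMM-scaled library size, as mean ± SD over 3 libraries. Exon lengths and 50-base matches came from GENCODE M21, positions and promoter windows from RefSeq GRCm38.p6. Exon length joins the exons of all transcripts of a gene. The alternatives tried were upper-quartile factors, library size alone, RLE factors, DESeq2 1.42.0, limma-voom 3.58.1, no count filter, CPM above 1 in 3 libraries, a replicate block, and leaving out each library. Pair ratios were tested by exact permutation, and 3 of 15 pairs were left out because a gene was not tested. Every member could be named. Of each list of further genes, the 3 largest called changes at an average log2 CPM of at least 1 were named, with Sqstm1, Tcirg1, Atp6ap1, Atp6ap2, Ctsb, Ctsd and Ctsl. Retreg1 stands in the table under its older symbol Fam134b. Members and lists were chosen with earlier results of these data known. Replicates were not duplicates, as their chi-square per degree of freedom was at least 7.98.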

Additional observations from a re-analysis of the deposited data

How the results depend on the processing

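The counts of members called moved with scaling. With upper-quartile factors, 9 were higher (autophagy 5), and 5 lysosomal members were lower. With library size alone, 24 were higher and 2 lower, with lysosomal members at 2 higher and 0 lower, autophagy at 14 higher and 2 lower, and V-ATPase at 0 lower. The lysosomal members had 1 higher with no count filter and 1 with the replicate block. Leaving out 1 library gave 10 to 15 members higher, with autophagy at 5 to 8 and the lysosome at 0 to 1. The median log2 fold change turned to 0.41 for all members, 0.24 for the V-ATPase and 0.27 for the lysosome with library size alone, and for autophagy to -0.084 with upper-quartile factors and, on leaving out 1 library, lay between -0.053 and 0.19. All log2 fold changes that turned sign belonged to genes that were not called in the main test. Among them, only Lamp1 was called with the turned sign, with library size alone. The values that turned with library size alone were Atp6v0b 0.51, Atp6v1d 0.14, Atp6v1c1 0.053, Atp6v1g2 0.35, Lamp1 0.47, Lamp2 0.34, Hexa 0.20, Npc2 0.21, Atg3 0.34, Atg5 0.30, Gabarap 0.32, Gabarapl2 0.14 and Atp6ap2 0.21. With upper-quartile factors they were Atp6v0e -0.10, Atp6v1f -0.19, Atg4b -0.16, Atg12 -0.084 and Tax1bp1 -0.024. Atp6v1f was also at -0.0036 with RLE factors and -0.013 with DESeq2, and Atp6v0b at 0.018 with no count filter. On leaving out 1 library, Atp6v0b ranged from -0.15 to 0.038, Atp6v0e from -0.10 to 0.21, Atp6v1f from -0.28 to 0.18, Lamp1 from -0.19 to 0.0029, Atg4b from -0.12 to 0.19 and Atg12 from -0.089 to 0.20, and the pair Atp6v0a2 over Atp6v0a1 from -0.25 to 0.075. Whether the replicate numbers pair the libraries cannot be told from 3 libraries per group. Same-numbered libraries correlated at 0.17, 0.19 and -0.13 in their deviations from the group means. Libraries with unlike numbers correlated at -0.26 to 0.08. With the replicate block, 14 members were higher and 17 lower. The splits over all genes moved in step with the members, with 23.3% higher and 33.7% lower by upper-quartile factors and 41.6% and 11.6% by library size alone. The cause of these shifts was not tested. For genes with under 10 counts in a library, such as Atp6v0d2 and Atp6v0a4, depth limits what can be called. Counts of further genes and the ratios of Atp6v1b2, Atp6v0c and Sqstm1 to other genes were added after seeing the data.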
